A study of Saccharomyces cerevisiae with 17 samples.

Results

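The 10 histone genes of budding yeast, Saccharomyces cerevisiae, were located by name in the R64 genome and read in 4 lists of chromatin immunoprecipitation (ChIP-seq) peaks for methylated lysine 4 of histone H3. All 10 were found among 6002 nuclear protein-coding genes. Of these, 8 encode the core histones and lie in 4 divergent pairs, in which neighbouring genes are read away from each other from 1 shared promoter. HTA1-HTB1 and HTA2-HTB2 encode histones H2A and H2B, and HHT1-HHF1 and HHT2-HHF2 encode H3 and H4. HTZ1, the gene of the variant H2A.Z, and HHO1, the gene of the linker histone H1, stand alone. The 4 pairs were among 1527 divergent pairs in the genome.

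In yeast the core histones package DNA into nucleosomes and are made mostly in S phase, when new chromatin is assembled. Each pair is switched on by activators such as Spt10 and the cell cycle factor SBF, and outside S phase pairs other than HTA2-HTB2 are held down by the HIR complex. H2A.Z replaces H2A in nucleosomes beside promoters. Methylation of H3 lysine 4 is placed by Set1 in the COMPASS complex. In this yeast trimethylation (H3K4me3) typically marks the 5′ end of an active gene and dimethylation (H3K4me2) reaches further into its body.

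Cells were of the BY4741A strain in every group and were fixed in exponential growth in rich medium. The groups used were set1 deletion cells, which lack the only H3 lysine 4 methyltransferase of this yeast, and cells with wild-type Cps25, the COMPASS subunit encoded by SDC1. Each was precipitated with a homemade rabbit polyclonal antibody against H3K4me2 and another against H3K4me3. The series held 17 samples. The lists of 4 of them, replicate 1 of each of these groups, were used; 13 samples were not analysed here. As each group had 1 list, no test between groups was possible, and each difference describes these libraries. The lists held 927 and 743 peaks in set1 deletion cells (H3K4me2 and H3K4me3 antibodies), against 4393 and 4087 peaks in Cps25 wild-type cells. SET1 itself (YHR119W, chromosome VIII, 346043 to 349285) had no listed 5′ peak in set1 deletion cells and an H3K4me2 peak of 1813 bp and an H3K4me3 peak of 798 bp in Cps25 wild-type cells. Read depth is unknown, and peak scores are the authors' own, given here as percentiles within a list. Peaks that overlap set1 deletion peaks had been taken out of the wild-type lists, per their names, so a missing wild-type peak was read together with the numbering of the peaks, described further down. Copies of a core histone gene are close in sequence, so reads of 1 copy can be placed at the other or left out, and the part of this in the results was not tested.

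The core histone genes and the variant and linker histone genes differed in the lists. In set1 deletion cells the H3K4me2 antibody gave short peaks at all 4 core pairs, which at HHT2-HHF2 lay past the ORF ends and not over the genes, and none at HTZ1 or HHO1. In Cps25 wild-type cells HTZ1 and HHO1 carried peaks of both marks over their starts and whole ORFs. Of the 8 core genes, 5 had no peak of either mark over the ORF and the other 3 had short peaks of low rank of 1 mark each. Wild-type peaks that overlap set1 deletion peaks had been taken out, so the set1 deletion and wild-type patterns are not independent. Of 7 histone genes without a listed H3K4me2 peak, 5 lay where the peak numbers skip, against 33.2% of all such genes. For H3K4me3 it was 4 of 6, against 24.3%. A gene was counted when a peak shared 1 bp or more with the first 500 bp of its ORF (for 9 of the 10 genes this is the entire ORF). Without Set1, 4 of the 10 genes had an H3K4me2 antibody peak (40.0%, exact 95% interval 12.2 to 73.8), against 4.75% of all genes, and 0 had an H3K4me3 antibody peak (an interval of up to 30.8%), against 3.40% of all genes. In Cps25 wild-type cells 3 of 10 had an H3K4me2 peak (30.0%, 6.67 to 65.2), against 75.1% of all genes, and 4 of 10 an H3K4me3 peak (40.0%, 12.2 to 73.8), against 68.7% of all genes. Counted over the whole ORF the histone genes gave the same 4, 0, 3 and 4 of 10, against 6.75% and 5.48% of all genes in set1 deletion cells and 76.0% and 69.4% in Cps25 wild-type cells. Both wild-type marks were listed at 2 of 10 (HTZ1 and HHO1), against 66.2% of all genes, and neither at 5 of 10, against 22.4%. Among ORFs of 300 to 800 bp, which is the size range of the histone genes, the shares were 8.27% and 4.64% in set1 deletion cells, and 67.5% and 62.2% in Cps25 wild-type cells. Intervals cover counting error over genes only and treat the genes as independent, although the 8 core genes lie in 4 pairs.

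**Figure D1:**
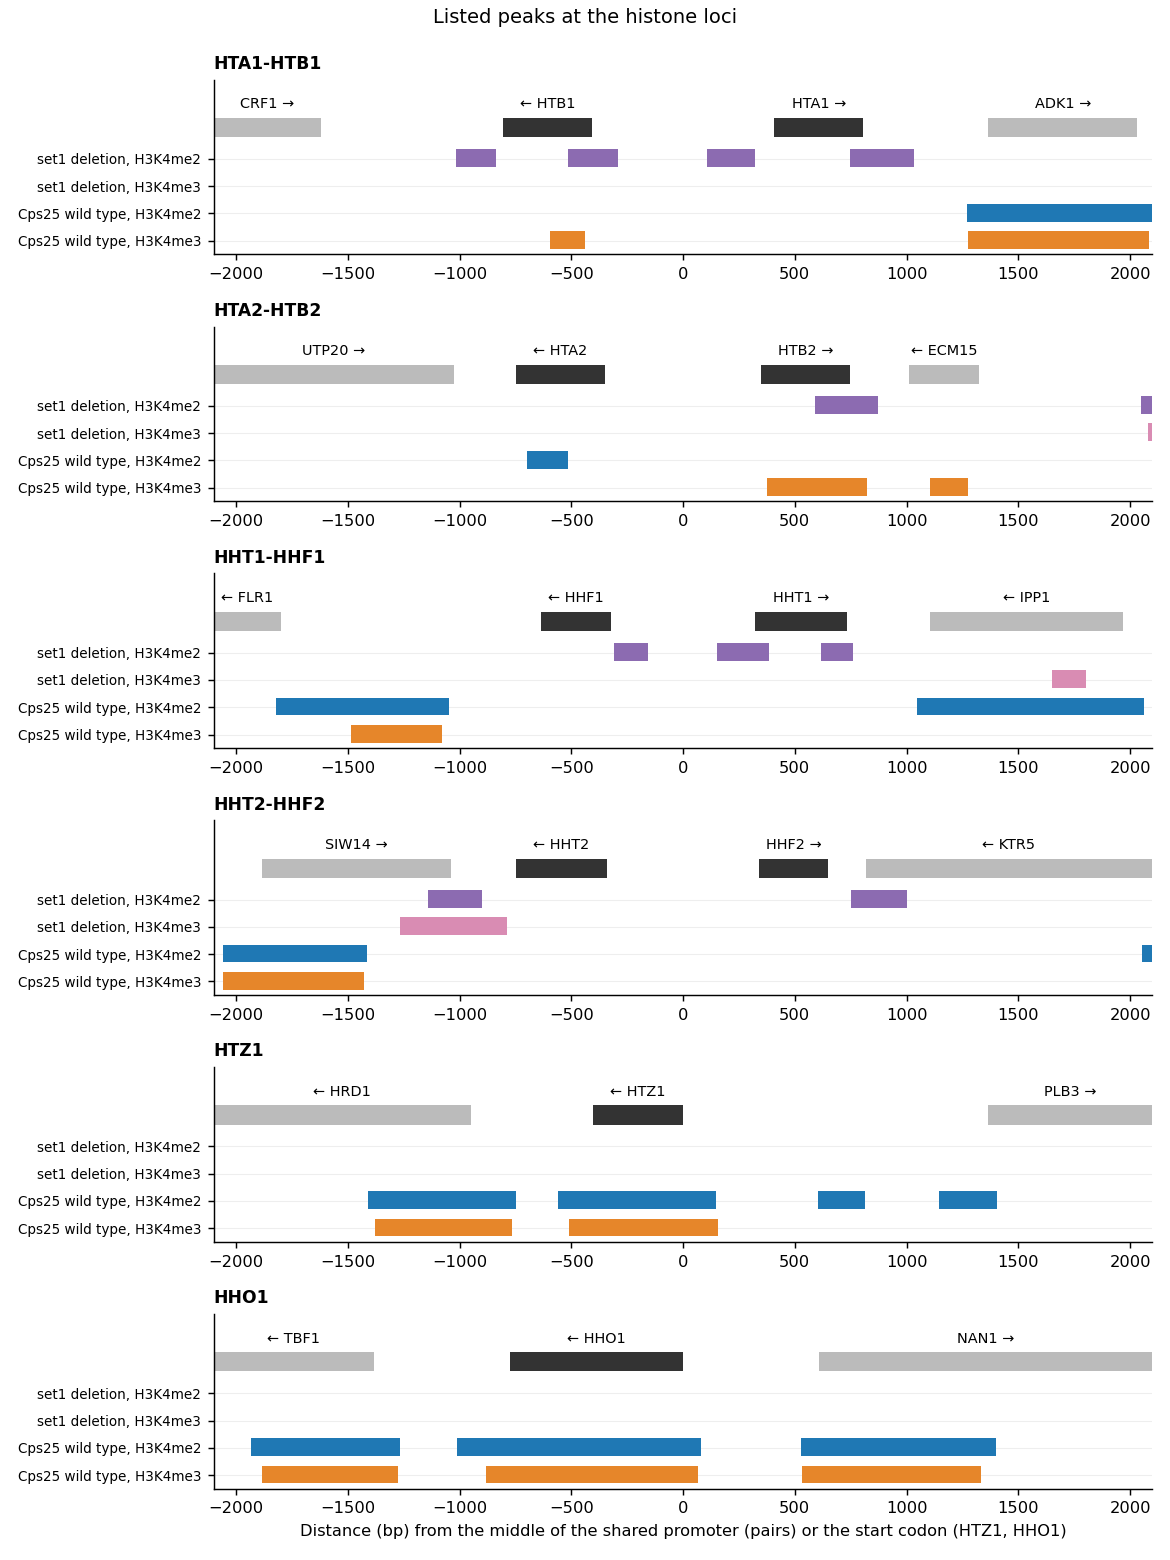
Listed peaks at the 6 histone loci. The x axis is the distance in bp from the middle of the shared promoter (pairs) or from the start codon (HTZ1 and HHO1); dark boxes are histone ORFs, grey boxes their neighbours with arrows for the direction of reading, and coloured bars are peaks of each list. Small H3K4me2 antibody peaks of set1 deletion cells lie over or beside the core histone genes, while wild-type peaks lie over HTZ1, HHO1 and many neighbours; set1 deletion peaks had been taken out of the wild-type lists.

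The HTA1-HTB1 pair lies on chromosome IV, with HTB1 (YDR224C) from 914317 to 914712 and HTA1 (YDR225W) from 915530 to 915928, 817 bp apart. In set1 deletion cells 4 H3K4me2 antibody peaks stood at this pair. They ran from 914106 to 914285, beyond the 3′ end of HTB1, from 914607 to 914830, over the HTB1 start codon, from 915230 to 915443, inside the shared promoter, and from 915868 to 916153, over the 3′ end of HTA1. Their score percentiles were 44.2, 12.4, 40.7 and 47.0, so all 4 lay in the lower part of the list. No H3K4me3 antibody peak was listed at the pair in these cells. No H3K4me2 peak was listed over either gene or their promoter in Cps25 wild-type cells. The only wild-type H3K4me3 peak was 160 bp long, from 914525 to 914684, inside HTB1, at score percentile 2.34.

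HTA2-HTB2, the other H2A and H2B pair, lies on chromosome II, with HTA2 (YBL003C) from 235394 to 235792 and HTB2 (YBL002W) from 236492 to 236887, 699 bp apart. Set1 deletion cells had 1 peak here of the H3K4me2 antibody, from 236732 to 237013 over the 3′ end of HTB2 at score percentile 3.67, and none of the H3K4me3 antibody. The wild-type marks were listed on different genes of the pair. HTA2 carried an H3K4me2 peak of 186 bp, from 235442 to 235627, which covered 46.6% of the ORF at score percentile 4.12. HTB2 carried an H3K4me3 peak of 445 bp, from 236519 to 236963, which covered 93.2% of the ORF at score percentile 2.91. HTB2 was the core gene with the most bases under a listed peak, 369 of 396. The wild-type H3K4me3 peak of HTB2 overlapped the H3K4me2 antibody peak of the set1 deletion cells, which the filter, applied within each antibody, had not touched.

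The H3 gene HHT1 (YBR010W, chromosome II, 256331 to 256741) and the H4 gene HHF1 (YBR009C, 255373 to 255684) are 646 bp apart. Set1 deletion cells had 3 H3K4me2 antibody peaks. The first, from 255699 to 255852, ended 15 bp upstream of the HHF1 start codon, the second, from 256160 to 256393, covered the HHT1 start codon, and the third, from 256623 to 256768, covered the HHT1 3′ end. Their score percentiles were 26.1, 26.4 and 16.8. No wild-type peak of either mark was listed over HHT1, HHF1 or the promoter between them. At HHT2 (YNL031C, chromosome XIV, 575640 to 576050) and HHF2 (YNL030W, 576727 to 577038), which are 676 bp apart, set1 deletion cells had peaks only outside the genes. H3K4me2 antibody peaks began 153 bp beyond the end of the HHT2 ORF and 100 bp beyond the end of the HHF2 ORF. These peaks overlapped the ORFs of the next genes, SIW14 and KTR5. An H3K4me3 antibody peak of 483 bp, from 575120 to 575602, began 38 bp beyond the HHT2 ORF and also overlapped SIW14. It was the only peak of that antibody within 250 bp of any core pair. Wild-type cells again had no listed peak of either mark over this pair. So both H3 genes, whose product carries the methylated lysine, and both H4 genes were without a listed wild-type peak.

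HTZ1 (YOL012C, chromosome XV, 303579 to 303983) had no peak of either antibody in set1 deletion cells. In Cps25 wild-type cells it had an H3K4me2 peak of 707 bp, from 303423 to 304129, at score percentile 96.4, and an H3K4me3 peak of 665 bp, from 303474 to 304138, at score percentile 76.2. HHO1 (YPL127C, chromosome XVI, 308828 to 309604) also had none in set1 deletion cells. Its wild-type H3K4me2 peak was 1096 bp long, from 308591 to 309686, at score percentile 71.6, and its H3K4me3 peak 951 bp, from 308721 to 309671, at score percentile 79.3. Each of the 4 wild-type peaks covered the whole ORF. Among all 1464 ORFs of 300 to 800 bp, 28.1% were wholly covered by H3K4me2 and 17.9% by H3K4me3 in Cps25 wild-type cells.

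The H3K4me2 peak reached further downstream than the H3K4me3 peak at both genes. At HTZ1 the H3K4me2 peak ended 560 bp and the H3K4me3 peak 509 bp after the start codon, a difference of 51 bp. At HHO1 the ends lay at 1013 and 883 bp, a difference of 130 bp. Over the 3975 genes with both marks the median difference was 82 bp, with quartiles of 42.5 and 137 bp, so HTZ1 and HHO1 both fell between the quartiles. On the upstream side the H3K4me3 peak of HTZ1 reached 9 bp further than its H3K4me2 peak, while at HHO1 the H3K4me2 peak reached 15 bp further, against a median of 17 bp further for H3K4me2 over all these genes. The HHO1 peaks ended further downstream than those of most genes, at percentile 96.8 for H3K4me2 and 97.7 for H3K4me3, and the H3K4me2 peak ran 237 bp past the end of the ORF. The HTZ1 ends were near the middle, at percentiles 41.1 and 53.7.

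**Figure D2:**
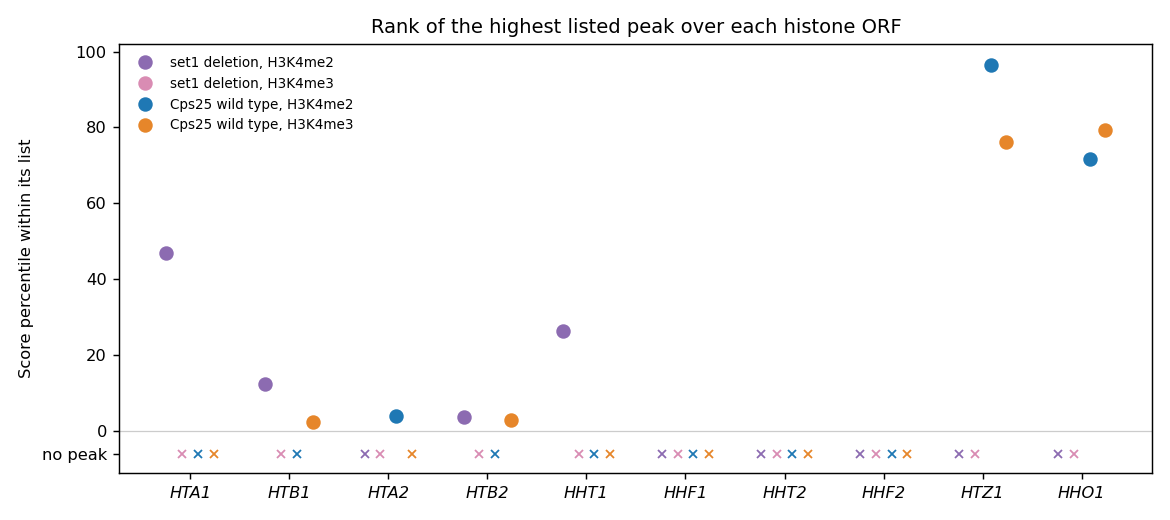
Score percentile of the highest listed peak over each histone ORF (y axis, percentile within its own list; x axis, the 10 genes). A cross marks a list with no peak over the ORF. HTZ1 and HHO1 rank at 71.6 to 96.4 in the wild-type lists, against 2.34 to 4.12 for the 3 core genes with a wild-type peak.

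By length, H3K4me2 antibody peaks of set1 deletion cells covered 505 of the 3036 bases of the 8 core ORFs (16.6%), against 1.36% of all ORF bases. H3K4me3 antibody peaks of these cells covered 0 of 3036 bases, against 1.45% of all ORF bases. In Cps25 wild-type cells H3K4me2 peaks covered 186 bases (6.13%), against 28.1% of all ORF bases, and H3K4me3 peaks 529 bases (17.4%), against 22.2%. H3K4me3 thus covered more of the core ORFs than H3K4me2 in the wild-type lists, whereas over all ORFs H3K4me2 covered more. All 529 H3K4me3 bases lay in HTB1 and HTB2, and HTB2 alone gave 369 of them. Both genes lie in gaps of the wild-type H3K4me2 list with a missing peak number, so an H3K4me2 peak may have been taken out there, and the order of the marks over the core ORFs cannot be told from these lists.

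The shared promoters of the core pairs were free of listed wild-type peaks. Without Set1, 2 of the 4 shared promoters, HTA1-HTB1 and HHT1-HHF1, held an H3K4me2 antibody peak, against 15.0% of the 746 other divergent pairs spaced 400 to 1200 bp. H3K4me3 antibody peaks of these cells lay in 0 of 4, against 8.85%. With wild-type Cps25, H3K4me2 peaks lay in 0 of 4, against 89.4% of those 746 pairs, and H3K4me3 peaks in 0 of 4, against 83.1%. These lists had been filtered, and a peak number was missing in gaps over some of the pairs. For H3K4me2 these were HTA1-HTB1, HTA2-HTB2 and HHT2-HHF2, and for H3K4me3 HHT1-HHF1 and HHT2-HHF2. A peak may have been taken out in those gaps, so an empty promoter there cannot be read as unmarked. For H3K4me3 at HHT1-HHF1, no set1 deletion H3K4me3 antibody peak in the gap lay over the pair. The nearest ran over IPP1, from 257656 to 257810, so a peak taken out there need not have reached the promoter. Their spacing was not unusual: the histone promoters were 646 to 817 bp long, at percentiles 62.1 to 75.9 of all divergent pairs. A set1 deletion peak in the first 500 bp of both genes was listed for 1 of 4 histone pairs, HTA1-HTB1, with the H3K4me2 antibody, against 1.07% of the other pairs, and for 0 of 4 with the H3K4me3 antibody, against 0.536%. Wild-type peaks in the first 500 bp of both genes were listed for 0 of 4 histone pairs with either mark, against 57.8% of the other pairs with H3K4me2 and 50.3% with H3K4me3. For 2 of the 4 pairs, HHT1-HHF1 and HHT2-HHF2, neither mark was listed at either gene, against 6.97% of the other pairs. A single wild-type peak over both start codons was seen at 0 of 4 histone pairs, against 3.89% of the other pairs with H3K4me2 and 0.804% with H3K4me3.

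In the promoters that held set1 deletion peaks, the H3K4me2 antibody peaks covered 332 of 817 bp (40.6%) between HTA1 and HTB1 and 325 of 646 bp (50.3%) between HHT1 and HHF1. Stretches of 399 bp and 307 bp with no listed peak lay between the peaks of each promoter. Peaks of both promoters reached into the middle 50% of their length, at HHT1-HHF1 only at its edges. The median covered in that middle part was 2.62% over the 4 pairs. The other promoters, of HTA2-HTB2 and HHT2-HHF2, were at 0%, which makes a median of 20.3% over the 4 pairs, against a median of 0% over the other pairs of like spacing.

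**Figure D3:**
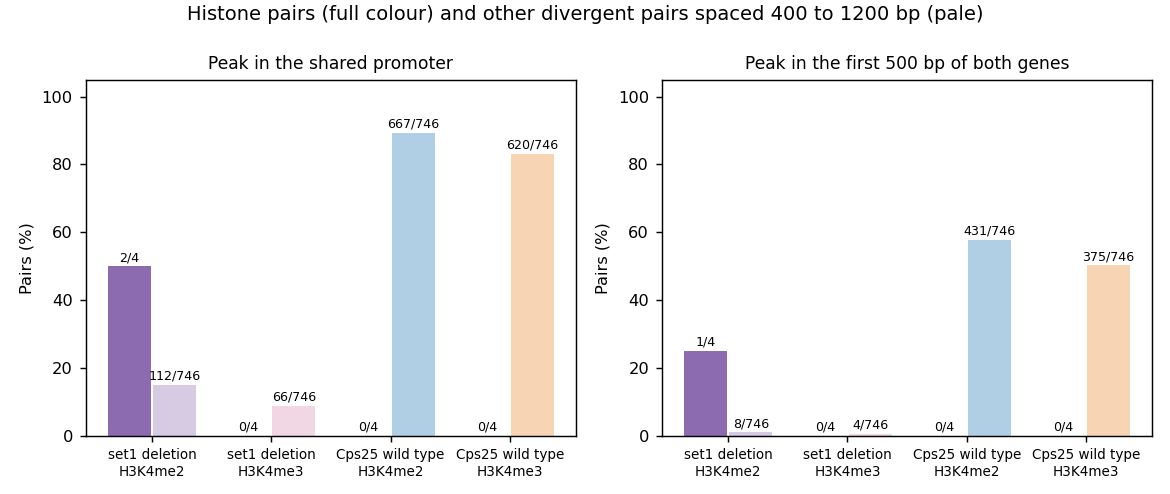
Share of divergent pairs (y axis, %) with a peak in the shared promoter (left) or in the first 500 bp of both genes (right), in each list (x axis). Full colours are the 4 histone pairs and pale colours the 746 other pairs spaced 400 to 1200 bp, with counts above the bars. Wild-type peaks were listed in 0 of 4 histone promoters with either mark, but peaks that overlap set1 deletion peaks had been taken out of the wild-type lists.

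The H3K4me2 antibody peaks of set1 deletion cells at the core genes were also listed around the ORF ends. At the 3′ side 6 of the 8 core genes, HTA1, HTB1, HTB2, HHT1, HHT2 and HHF2, had such a peak between 100 bp before and 250 bp after the end of the ORF (75%, 34.9 to 96.8), against 7.96% of all genes. This region was chosen after the peaks had been seen, so the interval does not have its nominal coverage. The peaks counted for HHT2 and HHF2 overlapped the ORFs of the neighbouring genes SIW14 and KTR5, not the histone ORFs. The peak of HTA1 ran from 60 bp before to 225 bp after the end of the ORF, that of HTB2 from 155 bp before to 126 bp after, and that of HTB1 from 32 to 211 bp after. HTA2 and HHF1 had none there, nor had HTZ1 or HHO1. With the H3K4me3 antibody HHT2 was the only core gene with a peak in this region, against 5.03% of all genes. With wild-type Cps25, 1 of 8 core genes had a peak of each mark there, HTA2 for H3K4me2, against 32.9% of all genes, and HTB2 for H3K4me3, against 26.4%.

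In all, 10 H3K4me2 antibody peaks of set1 deletion cells and 1 H3K4me3 antibody peak lay from 250 bp before to 250 bp after the 4 pairs, over 7874 bp. The Cps25 wild-type lists had 1 H3K4me2 peak and 2 H3K4me3 peaks in the same 7874 bp. In all, the wild-type lists held 4393 and 4087 peaks, after filtering, and the set1 deletion lists 927 and 743. A rate for other stretches of this length was not computed, so these counts alone show neither excess nor depletion. The 10 set1 deletion H3K4me2 antibody peaks were 146 to 286 bp wide, at score percentiles 3.67 to 47.0. None of them was in the upper part of its list by score, so counting only that part left 0 of 10 genes with a peak.

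**Figure D4:**
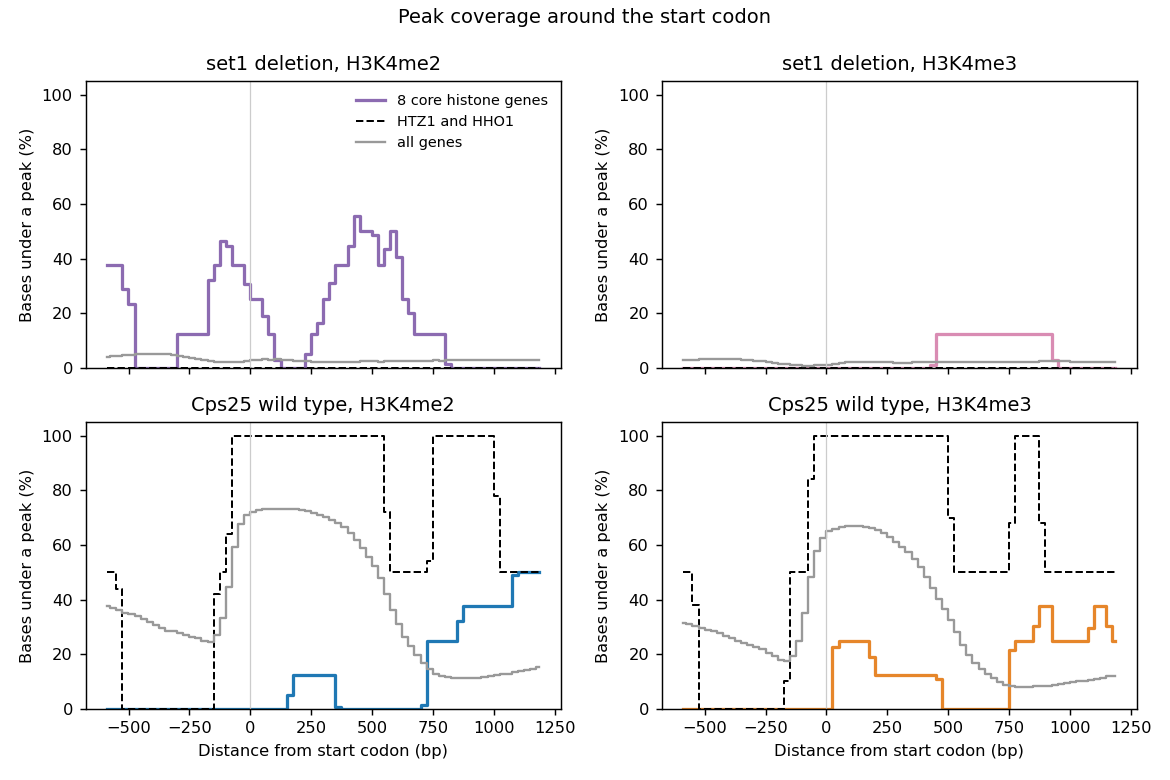
Bases under a peak (y axis, %) in steps of 25 bp from the start codon (x axis, bp) for the 8 core histone genes (coloured), HTZ1 and HHO1 (dashed) and all 6002 genes (grey), by list. Peaks that overlap set1 deletion peaks had been taken out of the wild-type lists. In set1 deletion cells the H3K4me2 antibody profile of the core genes was highest between 425 and 449 bp, which is past the end of every core ORF (55.5%, against 2.18% over all genes), and where the profile of all genes was highest in wild-type cells the core genes were at 0% for H3K4me2 (75 to 99 bp), against 73.3%, and at 25% for H3K4me3 (100 to 124 bp), against 66.9%.

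The numbering of the wild-type peaks shows where peaks had been taken out. Numbers in the peak names rose along every chromosome, and they skipped at 291 gaps of the H3K4me2 list and 230 gaps of the H3K4me3 list, each of which held a set1 deletion peak of the same antibody. A gap is the stretch between neighbouring listed peaks. At HHT1-HHF1 the H3K4me2 numbers ran on without a skip over a gap of 2093 bp, although 3 set1 deletion H3K4me2 antibody peaks stood there. As far as the numbering shows, no wild-type H3K4me2 peak had been called over this pair. The H3K4me3 numbers likewise ran on over HTA1, HTB1 and HTA2, so no H3K4me3 peak was taken out at those genes.

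At the other places a skip was found. For H3K4me2 1 number was missing in the gap of 8643 bp over HTA1-HTB1, and the 4 set1 deletion H3K4me2 antibody peaks in that gap were the 4 at the pair itself. For H3K4me2 1 number was also missing in the gap of 5368 bp from HTA2 over HTB2 and in the gap of 3469 bp over HHT2-HHF2, each with 2 set1 deletion peaks. For H3K4me3 1 number was missing in the gap of 4467 bp over HHT2-HHF2, whose only set1 deletion H3K4me3 antibody peak was the 1 beyond HHT2. In the gap of 11999 bp over HHT1-HHF1 1 H3K4me3 number was missing, with 2 set1 deletion H3K4me3 antibody peaks in the gap and none of them over the pair. The nearer of these ran over IPP1, from 257656 to 257810. All of these gaps were longer than the median gap of their list, 1311 bp for H3K4me2 and 1485 bp for H3K4me3. The gap over HHT1-HHF1 was at percentile 99.1 for H3K4me3 and 66.5 for H3K4me2.

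Of the 7 histone genes with no wild-type H3K4me2 peak, 5 lay in a gap with a skipped number (71.4%), against 33.2% of all 1496 genes without such a peak. For H3K4me3 it was 4 of 6 (66.7%), against 24.3% of 1876. With these genes left out, a restriction chosen after seeing the data, 3 of the 5 remaining histone genes had an H3K4me2 peak, against 81.9% of all genes so restricted, and 4 of the 6 remaining had an H3K4me3 peak, against 74.4%. Leaving out genes without a peak can only raise these shares. Of the core genes 1 of 3 (HTA2, but not HHT1 or HHF1) and 2 of 4 (HTB1 and HTB2, but not HTA1 or HTA2) remained with a peak. Whether the rest carried the marks in wild-type cells cannot be told from these lists. HHT1 and HHF1 were left out for H3K4me3 although no set1 deletion H3K4me3 antibody peak in their gap lay over the pair.

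The genes beside the core pairs were listed with the wild-type marks at shares near or below those of all genes. Of the 8 neighbours of the 4 pairs, 0 had an H3K4me2 antibody peak and 1 an H3K4me3 antibody peak in the first 500 bp in set1 deletion cells, where the shares of all genes were 4.75% and 3.40%. In Cps25 wild-type cells 6 had H3K4me2 and 4 had H3K4me3, where the shares of all genes were 75.1% and 68.7%. ADK1, the adenylate kinase gene 557 bp beyond HTA1, had an H3K4me2 peak of 852 bp at score percentile 99.8 and an H3K4me3 peak at 83.5. IPP1, the inorganic pyrophosphatase gene 370 bp beyond HHT1, had an H3K4me2 peak of 1015 bp at score percentile 99.7. A set1 deletion H3K4me3 antibody peak ran over IPP1 from 257656 to 257810, and no wild-type H3K4me3 peak was listed there. SIW14, a phosphatase gene beside HHT2, had peaks at percentiles 79.4 and 72.4. UTP20, a ribosome biogenesis gene beside HTA2, had peaks at 41.8 and 39.2. FLR1, a multidrug transporter gene beside HHF1, and KTR5, a mannosyltransferase gene beside HHF2, had only H3K4me2 peaks in this window, at 24.9 and 3.64. An H3K4me3 peak of 408 bp at percentile 28.3, from 254524 to 254931, lay inside the H3K4me2 peak of FLR1 (254186 to 254960) but outside the ORF. CRF1 had neither mark listed, and ECM15 had a short H3K4me3 peak at percentile 2.69. Beside HTZ1, HRD1, a ubiquitin ligase gene of the endoplasmic reticulum, had both marks, at percentiles 62.7 for H3K4me2 and 41.0 for H3K4me3, and the phospholipase gene PLB3 had H3K4me2 at 2.09. Beside HHO1, TBF1 (71.2 and 74.1) and NAN1 (64.6 and 86.7) had both marks.

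Genes whose products regulate, carry or deposit histones had listed marks in most cases, from 7 lists of 39 genes. Without Set1, 3 of 39 had an H3K4me2 antibody peak (7.69%) and 1 an H3K4me3 antibody peak (2.56%), near the 4.75% and 3.40% of all genes. In Cps25 wild-type cells 35 had an H3K4me2 peak (89.7%) and 37 an H3K4me3 peak (94.9%), against the 75.1% and 68.7% of all genes. All 4 genes of the HIR complex, HIR1, HIR2, HIR3 and HPC2, had both marks. HIR1 (44.9) and HIR2 (43.3) led by H3K4me2 percentile and HIR3 (49.7) and HIR2 (48.1) by H3K4me3 percentile. Of 9 other regulators of histone gene transcription, 9 had H3K4me2 and 8 had H3K4me3. YTA7, an ATPase at histone genes, and MBP1 of the factor MBF led for H3K4me2 at 90.5 and 81.3. MBP1 and SWI6, a subunit of both SBF and MBF, led for H3K4me3 at 75.6 and 74.6. SWI4, the DNA-binding subunit of SBF, lacked a listed H3K4me3 peak. SPT10, whose product binds the core histone promoters, had peaks at percentiles 46.9 and 72.9; these 2 genes were named after their values were seen.

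The 3 genes of the chromatin assembly factor CAF-1 had both marks, led by RLF2 (73.7) and CAC2 (41.2) for H3K4me2 and by CAC2 (51.6) and RLF2 (42.3) for H3K4me3. Among 6 genes of FACT and the Spt6 complex, which handle nucleosomes during transcription, 5 had H3K4me2 and 6 had H3K4me3. SPT16 (94.1) and SPT6 (81.5) led for H3K4me2 and SPN1 (97.97) and SPT6 (97.7) for H3K4me3. The H3K4me2 exception, named after its values were seen, was NHP6A, which had a set1 deletion H3K4me2 antibody peak of 151 bp. A wild-type peak that overlapped it would have been taken out, so the missing peak cannot be read as an absent mark. All 4 genes of chaperones and importins in the list, NAP1, CHZ1, KAP114 and VPS75, had both marks. NAP1 was at 89.5 for H3K4me2 and 97.7 for H3K4me3, and CHZ1, a chaperone of H2A.Z, was at 81.3 and 71.7.

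The SWR1 complex, which places H2A.Z, had H3K4me2 at 8 and H3K4me3 at 9 of its 10 listed genes. SWC5 (90.9) and SWC4 (73.4) led for H3K4me2, and SWR1 (83.3) and SWC4 (73.0) for H3K4me3. SWR1, the catalytic subunit, had a set1 deletion H3K4me2 antibody peak of 357 bp at percentile 99.8 and no listed wild-type H3K4me2 peak. BDF1, a bromodomain protein, had set1 deletion peaks of both antibodies, at percentiles 25.9 and 23.4, and was the only one of the 39 genes with neither mark listed in wild-type cells. Wild-type peaks that overlap set1 deletion peaks had been taken out, so the peaks missing at SWR1 and BDF1 cannot be read as absent marks. CSE4, the centromeric H3 variant, had both marks (77.3 and 59.9), as had the gene of its chaperone, SCM3 (21.9 and 10.7). PSH1, the ubiquitin ligase for Cse4, had H3K4me3 only, at 25.9.

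Other divergent pairs were ranked by how much their pattern was like that of the histone pairs. Likeness was the Euclidean distance to the mean of the 4 histone pairs over 12 values, the covered percent of the shared promoter and of the first 500 bp of each gene in each of the 4 lists. The histone pairs lay at 25.2 (HTA1-HTB1), 48.0 (HHT1-HHF1), 50.4 (HHT2-HHF2) and 73.9 (HTA2-HTB2) percentage points from their own mean. As each of them is part of that mean, which shortens its distance, these values are not set against those of other pairs. Of the 746 other pairs spaced 400 to 1200 bp, the nearest 5 were RPL15A-YLR030W at 38.6, YGR050C-FMP48 at 42.3, RGM1-MIN3 at 42.5, YLR415C-VPS36 at 43.6 and JHD2-DMO1 at 44.7. Set1 deletion H3K4me2 antibody peaks covered 1.13% of the YGR050C-FMP48 promoter and 0% of the others. The histone promoters were at 40.6% (HTA1-HTB1), 50.3% (HHT1-HHF1) and 0% (HTA2-HTB2 and HHT2-HHF2). YLR415C-VPS36 and JHD2-DMO1 had no set1 deletion peak of either antibody in the promoter or the first 500 bp. RPL15A encodes a ribosomal protein, and JHD2 encodes the demethylase of H3 lysine 4. In set1 deletion cells RPL15A had 17.0% and 16.8% of its first 500 bp under peaks of the H3K4me2 and H3K4me3 antibodies, against 31.2% and 35.2% in Cps25 wild-type cells. At JHD2 itself no list had a peak in the first 500 bp, and the peaks of that pair lay over DMO1.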

How the data were processed

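Peak lists of 4 libraries were used. Bowtie 1.1.2, MACS2 2.1.1 and the sacCer3 build are named in the submitters' processing notes; roles, settings and the use of the input are not given in the sources used here. Every listed peak has a score deposited by the authors, with no stated scale, used here only as a rank. The authors' deposited table for wild-type H3K4me2 also gives a nearest gene and a cluster, per the file headers; both gene ontology tables name no gene and were not used. BED starts were counted from 0 and are printed from 1. Gene positions were those of RefSeq for R64, the assembly of that build, with strand from the systematic name; the start is the start codon. A shared promoter is the interval between the start codons, 5′ UTRs included. No sequence was used. Members and gene lists were chosen with earlier results of these data known. Named genes were all 10 members, the next gene on each side, list members with neither mark, the 2 highest scores per mark and list, and the 5 most alike divergent pairs. Intervals of shares are exact (Clopper-Pearson, 95%). Scripts ran in Python 3.11.15 using scipy 1.17.1, pandas 2.3.3, numpy 2.4.6 and matplotlib 3.10.9; the interval code was tested on simulated data. Alternatives were a score threshold, joined, extended or trimmed peaks, a larger overlap and other windows. Read depth is unknown for every library.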

Additional observations from a re-analysis of the deposited data

How the results depend on the processing

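Of 92 values under alternatives, 74 stayed within 1.5 times the main value and 18 moved further. These values are counts and covered shares, so a change of direction was not defined for them. For 2 of the 74, unmarked genes in a gap with a skipped number were left out, which cannot change a count of marked genes. As shares those rose from 30% to 60% for H3K4me2 and from 40% to 66.7% for H3K4me3. That direction was fixed in advance, because only genes without a peak were left out. Counts of set1 deletion H3K4me2 antibody peaks depended most on the settings. With the upper 50% of the list by score, genes with a peak fell to 0 of 10 (first 500 bp and ORF alike), pairs with a promoter peak to 0 and the median covered promoter to 0%. With 50% of the window covered they were 0 genes and 1 pair, and with peaks trimmed by 100 bp 2 genes. The median covered promoter of 20.3% became 37.8% with peaks extended by 100 bp, 1.96% with peaks trimmed and 2.62% in the middle 50% of the promoter. With the H3K4me3 antibody, extension gave 1 gene in place of 0 in set1 deletion cells. In wild-type cells the upper 50% left 2 genes with H3K4me3 in place of 4, and extension gave 2 pairs with H3K4me3 in the promoter in place of 0, with a median of 4.41%. What caused these moves was not tested. Wild-type H3K4me2 stayed at 2 or 3 genes and 0 promoters in every alternative tried. The count of 6 genes with a set1 deletion peak near the ORF end was 5 with 100 bp and 6 with 500 bp after the end. No paired analysis was possible because each group had 1 list. No library could be left out for the same reason, and depth limits what a missing peak can show.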

Other observations

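The nearest gene named in the authors' deposited table of wild-type H3K4me2 peaks was seldom the gene under the peak. Of 4393 peaks, 3993 held a start codon, and for 4 of these the authors' deposited table named a gene whose start the peak held; 4 peaks had a deposited distance of 0. In the authors' deposited table the peak over the HTZ1 start was assigned to HRD1 at 387 bp, in cluster 1, and the peak over the HHO1 start to TBF1 at 369 bp, in cluster 2. Cluster 1 held 829 of the 4393 peaks (18.9%) and cluster 2 the other 3564.

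Histone genes were named instead for the peaks of their neighbours. The authors' deposited table named 6 histone genes for 8 peaks, of which 1 overlapped the named ORF, that of HTA2 at 165 bp in cluster 2. The peak over the IPP1 start, at score percentile 99.7, was assigned to HHT1 at 723 bp in cluster 1 of the authors' deposited table, and the FLR1 and SIW14 peaks were assigned to HHF1 at 724 bp and HHT2 at 1077 bp. In the same authors' deposited table HTZ1 was named for the peaks of HRD1 and PLB3, and HHO1 for those of TBF1 and NAN1. HHT1, HHF1 and HHT2 are thus named in that column although no peak of the list lay over them. Whether the deposited gene ontology tables used these names was not tested.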
